A study of Mus musculus with 9 samples.

Results

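The genes described here are mouse protein arginine methyltransferases and 2 partners of PRMT5, which together make the methylarginine marks that Tudor domain proteins read. They were taken from the deposited table of normalized counts as the rows whose gene symbol was Prmt1, Prmt2, Prmt3, Carm1, Prmt5, Prmt6, Prmt7, Prmt9, Wdr77 or Clns1a. All 10 symbols were found among the 19944 genes of the table, and all 10 were among the 15238 genes that passed the filter on low values.

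Protein arginine methyltransferases (PRMTs) move a methyl group from S-adenosylmethionine (SAM) onto arginine side chains of histones, RNA-binding proteins and transcription factors. PRMT1, PRMT2, PRMT3, CARM1 and PRMT6 form asymmetric dimethylarginine, PRMT5 and PRMT9 form symmetric dimethylarginine, and PRMT7 leaves monomethylarginine. PRMT5 works in a complex with WDR77 (also called MEP50), and CLNS1A (also called pICln) brings Sm proteins of the spliceosome to that complex. SND1 (p100, Tudor-SN) carries a Tudor domain that binds symmetric dimethylarginine, which makes it a reader of the mark that PRMT5 writes.

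The study sequenced messenger RNA from livers of male FVB mice at 60 days of age in 3 groups of 3 libraries each. The groups were SND1 knock-in mice with a mutated Tudor domain (KI), SND1 knockout mice (KO) and wild-type mice (WT). Strain, sex and age were shared by all groups. The mutated residues, the knockout's construction and the cells in which Snd1 was removed are not given in the sources used here. The labels call the cells hepatocytes and the tissue liver, and the values are of the whole tissue, so that fewer cells of a type and less RNA per cell cannot be told apart. The labels do not say whether animals came from separate litters, so the p-values measure only the spread between these libraries. Libraries are named by group and replicate number of the title, such as KI_1.

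The libraries held 59678412 to 66384374 reads counted to genes. Snd1 (chr6:28475139-28935162, plus strand) had 5373, 7941 and 5595 normalized counts in KI, 227, 414 and 359 in KO and 6951, 8446 and 6512 in WT, so every KO library was far below every other. Its log2 fold change was -4.48 ± 0.23 for KO minus WT (SE, limma adjusted p = 8.82e-06) and -0.23 for KI minus WT (interval -0.73 to 0.28, adjusted p = 0.745). All 10 hepatocyte markers were detected in each group. They took 4.79% to 7.66% of the reads in KI, 5.2% to 7.66% in KO and 6.96% to 9.2% in WT. The 15 pancreas acinar markers took 0.488% of the reads in KI_1, 5.78% in KI_3 and 1.23% in WT_3, against 0.00175% to 0.00525% in the other 6 libraries, and 6 of the 15 were at 0 in all KO libraries. The 13 Kupffer cell and macrophage markers took 0.0351% to 0.0541% in KI and 0.0294% to 0.0533% in WT. In KO_1, KO_2 and KO_3 they took 0.047%, 0.0418% and 0.0966%. Mpeg1, Marco and Cd163 of that list were called higher in KO than in WT, and the other 10 were not called. The log2 fold change for KO minus WT was above 0 in 9 of the 13, with a lowest value of -0.53. Mpeg1 was also called lower in KI than in KO. The 9 neutrophil and monocyte markers present took 0.000273% to 0.000725% in KI, 0.000394% to 0.00331% in KO and 0.000196% to 0.000556% in WT. Mmp8 was called higher in KO than in WT, and the other 6 of the 7 tested were not called. The 5 cholangiocyte markers took 0.00024% to 0.000375% in KI, 0.00028% to 0.000407% in KO and 0.000184% to 0.00028% in WT. Of the 4 tested, Sox9 was called higher in KO than in WT and lower in KI than in KO, and the other 3 were not called. The part of these other cells in the results below was not tested beyond the values given without the 3 libraries that hold pancreatic transcripts and with the pancreatic marker level as a covariate.

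Promoter windows of 300 bases, from 250 before to 50 after the RefSeq start (GRCm38.p6), were found for 9 of the 10 genes, that is for all but Carm1. The stretches that lie before every annotated start are shown for the genes whose values the comparisons turn on: Prmt5, its partners Wdr77 and Clns1a, and Prmt3. Capitals mark the motif matches on either strand, namely CCAAT boxes (CCAAT, which reads as ATTGG where it lies on the other strand) in Prmt3 and Prmt5, a GC box (GGGCGG, or from the other strand CCGCCC) in Wdr77 and an E-box (CACGTG, the same on both strands) in Clns1a.
Prmt5 promoter, GRCm38.p6 chr14:54517526-54517720, minus strand: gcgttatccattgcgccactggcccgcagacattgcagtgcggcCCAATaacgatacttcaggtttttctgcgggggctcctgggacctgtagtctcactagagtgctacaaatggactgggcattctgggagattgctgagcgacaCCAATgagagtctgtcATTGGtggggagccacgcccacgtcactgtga
Wdr77 promoter, GRCm38.p6 chr3:105959248-105959368, plus strand: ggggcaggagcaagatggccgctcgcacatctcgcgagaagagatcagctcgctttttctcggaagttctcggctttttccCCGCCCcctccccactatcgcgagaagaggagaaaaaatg
Clns1a promoter, GRCm38.p6 chr7:97696407-97696633, plus strand: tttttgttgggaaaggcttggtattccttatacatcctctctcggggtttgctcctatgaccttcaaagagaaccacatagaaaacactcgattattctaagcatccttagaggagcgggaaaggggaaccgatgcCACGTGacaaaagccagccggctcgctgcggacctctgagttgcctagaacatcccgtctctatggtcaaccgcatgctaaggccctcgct
Prmt3 promoter, GRCm38.p6 chr7:49778108-49778318, plus strand: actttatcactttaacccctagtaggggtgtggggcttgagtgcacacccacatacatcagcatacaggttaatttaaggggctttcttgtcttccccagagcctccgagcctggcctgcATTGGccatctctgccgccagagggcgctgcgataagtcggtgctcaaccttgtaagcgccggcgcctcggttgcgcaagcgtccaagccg

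In the full windows, the E-box CACGTG was present in 4 of the 9 genes, Prmt1, Prmt3, Wdr77 and Clns1a, against 7.15% of all 32851 windows in the RefSeq table. Positions are counted from the RefSeq start of the window. The E-box began 181 bases before that start in Prmt1, 13 before in Prmt3, 114 before in Clns1a and 10 after in Wdr77. An earlier annotated start lies 39 bases before the RefSeq start in Prmt3 and 129 before it in Wdr77. The E-boxes of Prmt3 and Wdr77 therefore lie after an annotated start. CCAAT was found in Prmt1, Prmt2, Prmt3 and Prmt5 (4 of 9, against 37.4% of all windows), and the GC box in 5 of 9 (against 35.7%). The ETS motif CCGGAAG was found in Prmt2, Prmt3 and Clns1a (3 of 9, against 8.86%), the TATA box TATAAA in Prmt2 (1 of 9, against 13.6%) and the cyclic AMP element TGACGTCA in Prmt9 (1 of 9, against 1.79%). GCGCATGC, the motif of NRF1, was in none of the 9 and in 2.71% of all windows. All motifs were searched on both strands, and no motif contains another. The windows held 16 to 39 CpG dinucleotides, against a median of 7 over all windows, and 53.3% to 69.7% G and C, against a median of 52.7%. A match describes these letters in the reference strain and is not evidence of binding.

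Levels were compared between genes per kilobase of exon, using the union of annotated exons (GENCODE M21). Clns1a, Carm1 and Prmt1 were highest, and Prmt2 was lowest by a wide margin. Clns1a had 305 ± 29.3 normalized counts per kb (SD over the 9 libraries), Carm1, the coactivator-associated enzyme, 245 ± 28.5, and Prmt1, the enzyme behind most asymmetric dimethylarginine, 211 ± 19.7. Prmt5 followed at 161 ± 23.2, Wdr77 at 133 ± 24.1, Prmt9 at 119 ± 17.2 and Prmt7 at 115 ± 17.1. Prmt3, which methylates ribosomal protein RPS2, had 67.5 ± 10.3, Prmt6 had 56.6 ± 11.1 and Prmt2 had 11.0 ± 7.27 normalized counts per kb. Clns1a lay above Carm1, and Prmt6 above Prmt2, with ranges over the 9 libraries that did not overlap. The first gap was narrow, as the lowest Clns1a and the highest Carm1 library both round to 282 per kb. The lowest Prmt6 library had 43.4 per kb and the highest Prmt2 library 24.5. All other neighbours in this order overlapped: Carm1 was above Prmt1 in 7 of 9 libraries, Prmt1 above Prmt5 in 9, Prmt5 above Wdr77 in 8, Wdr77 above Prmt9 in 5, Prmt9 above Prmt7 in 5, Prmt7 above Prmt3 in 9 and Prmt3 above Prmt6 in 7. Clns1a stood at the 68.2 percentile of the genes tested by this measure and Prmt2 at the 12.3 percentile. The lengths include exon bases shared with other genes, such as 1389 in Wdr77 with Gm42890 (same strand) and 1025 in Carm1 with Yipf2 (opposite strand). How reads in such bases were counted is not given in the sources used here. The place of these genes in the order is therefore less certain.

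**Figure D1:**
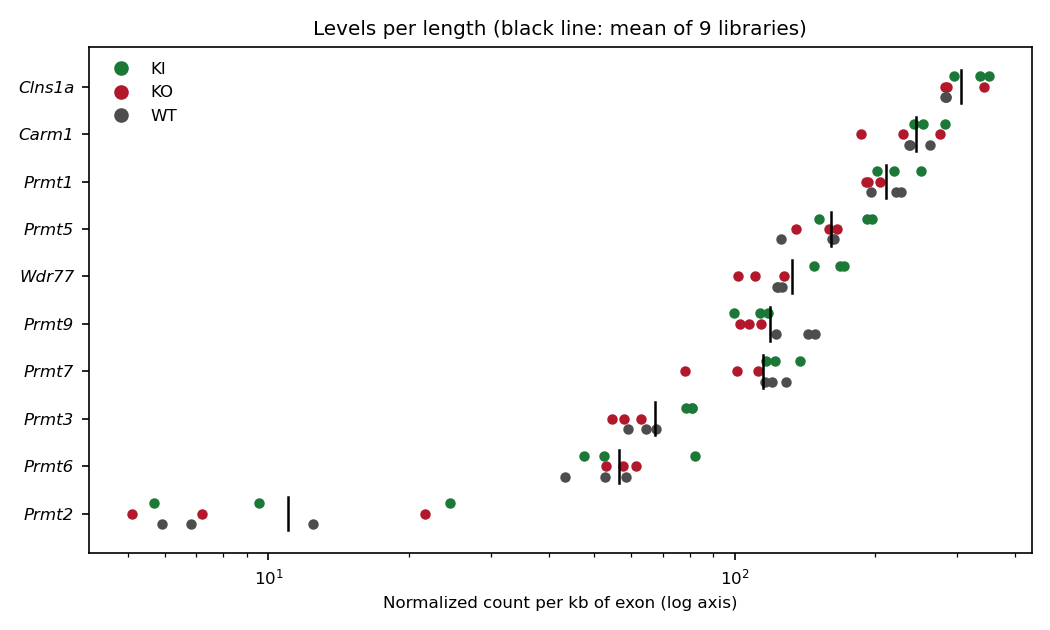
Normalized count per kb of exon (log axis) of each gene in each of the 9 libraries, coloured by group, with a black line at the mean of the 9. Clns1a (305) leads, and Prmt2 (11.0) is far below the rest. Within a gene, the KI points of Wdr77 and Prmt3 and the WT points of Prmt9 lie above all others. The KO points of Prmt7 lie below all others, and the KI points of Clns1a lie above its WT points. In the remaining genes the groups overlap.

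Of the 10 genes, none differed between KI and WT or between KO and WT at an adjusted p under 0.05 (limma, Benjamini-Hochberg over the 15238 genes tested, the rule by which genes are called here), and 1, Wdr77, was higher in KI than in KO. Over all genes tested, 0.0263% were called between KI and WT, 8.83% between KO and WT and 8.45% between KI and KO, so the count of 1 of 10 between KI and KO is near its background. Of the 1287 genes behind that last share, 548 were higher in KI (3.60% of all genes tested) and 739 lower, or 363 and 909 with scaling by total reads. edgeR's quasi-likelihood test on recovered reads called 0 of the 10 between KI and WT, 0 between KO and WT and 1 (Wdr77) between KI and KO. DESeq2 called 0, 0 and 2 (Wdr77 and Prmt3) in these comparisons. Over all genes tested, edgeR called 1, 1210 and 1200 and DESeq2 385, 2294 and 2287. At an unadjusted p under 0.05, 3 of 10 passed between KI and WT (11.6% of all genes), 2 between KO and WT (25.0%) and 3 between KI and KO (24.9%). Values of the groups did not overlap for 4 of 10 between KI and WT (19.6% of all genes), 2 between KO and WT (29.1%) and 3 between KI and KO (26.4%).

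The fitted differences were small. With Prmt2 left aside, the 95% intervals of the other 9 genes lay within 0.66 to 1.63-fold for KI over WT, 0.63 to 1.58-fold for KO over WT and 0.73 to 1.74-fold for KI over KO. The median log2 fold change of the 10 genes was 0.204 for KI minus WT, against 0.004 over all genes tested. It was -0.115 for KO minus WT, against 0.001, and 0.207 for KI minus KO, against 0.011. The change was above 0 in 9 of 10 genes for KI minus WT (7720 of all 15238 genes tested), 4 of 10 for KO minus WT (7624) and 10 of 10 for KI minus KO (7771), but scaling by total reads left 6, 4 and 8, and moved the median of all genes to -0.092 for KI minus WT and -0.093 for KI minus KO. Without the 3 libraries with pancreatic transcripts, which leaves KI_2 as the lone KI library, the counts above 0 were 7, 3 and 8 of 10. KI_2 was the highest of the 9 libraries for Carm1, Prmt5, Prmt7, Wdr77 and Clns1a, and KI_3 for Prmt1, Prmt2 and Prmt3, while a KO library was the lowest for 6 genes.

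**Figure D2:**
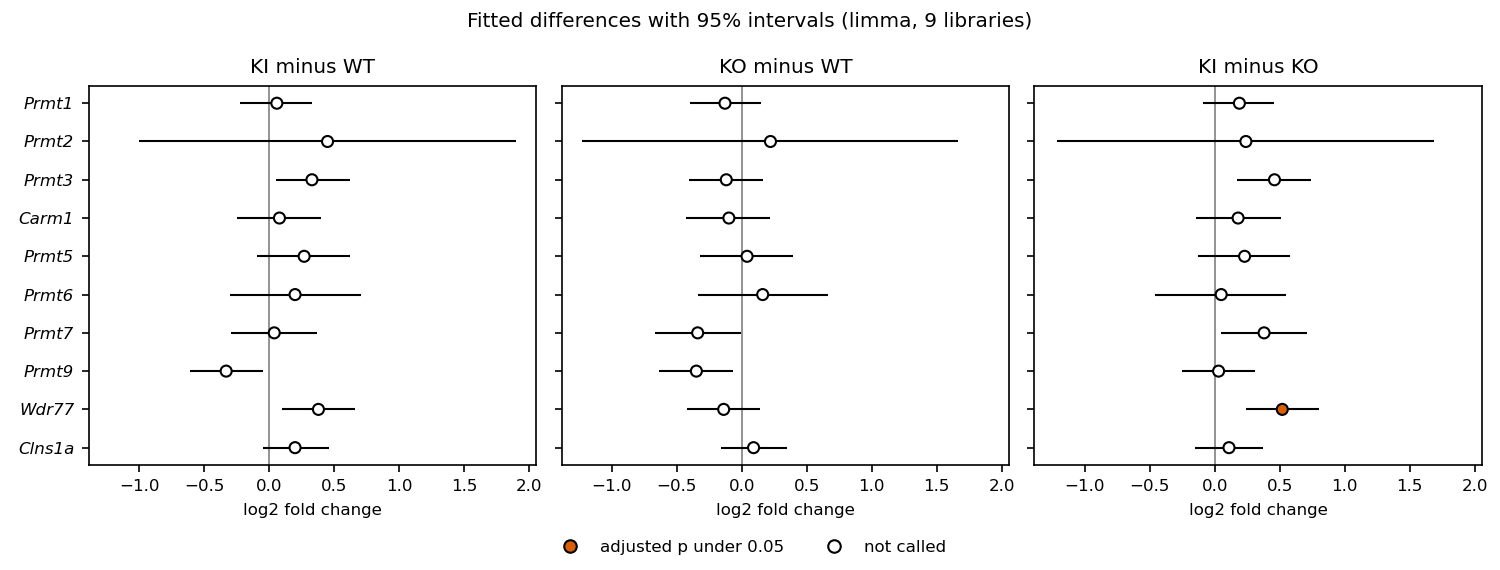
Fitted log2 fold change (point) and its 95% interval (line) of each gene in the 3 comparisons, from limma on log2(normalized count + 1) with all 9 libraries. Wdr77 between KI and KO (0.52) is the called gene, and the interval of Prmt2 is the widest in each panel.

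Wdr77 (ENSMUSG00000000561; GRCm38 chr3:105959369-105970037, plus strand), the WD-repeat partner without which PRMT5 is poorly active, carried the one called difference. It had 814, 829 and 715 normalized counts in KI_1, KI_2 and KI_3, 617, 492 and 536 in KO_1, KO_2 and KO_3, and 598, 596 and 610 in WT_1, WT_2 and WT_3. All KI libraries were above all KO and all WT libraries, and the WT libraries lay within the range of the KO libraries. The KI mean of 786 ± 61.8 was 1.44-fold the KO mean of 548 ± 63.1 in the fit (SD, n = 3 each; log2 fold change 0.52 ± 0.13 SE, 95% interval of the fold 1.18 to 1.74, limma adjusted p = 0.0326). Between KI and WT the log2 fold change was 0.38, with an interval of 0.10 to 0.66 and a limma adjusted p of 0.266. Between KO and WT it was -0.14, with an interval of -0.42 to 0.14 and an adjusted p of 0.545.

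The call of Wdr77 between KI and KO was narrow. Leaving out KO_2, KO_3, KI_1, KI_2, KI_3, WT_1, WT_2 or WT_3 in turn gave limma adjusted p values of 0.0515 to 0.128, and leaving out KO_1 gave 0.0121, with log2 fold changes of 0.45 to 0.61 over the 9 fits. Without the 3 libraries with pancreatic transcripts the log2 fold change was 0.60 with an adjusted p of 0.399, with their marker level as a covariate 0.56 with 0.193, and with scaling by total reads 0.42 with 0.141. KI_2, the KI library with pancreatic markers at 0.00516% of reads, had the highest Wdr77 value of all 9 libraries. Wdr77 shares 337 exon bases with Atp5f1 on the opposite strand, a subunit gene of mitochondrial ATP synthase with far more reads, and the strand setting of the counting is not given in the sources used here. Atp5f1 had 15423, 16516 and 15824 normalized counts in KI, 15447, 11841 and 10705 in KO and 15442, 16146 and 17751 in WT. Its log2 fold change for KI minus KO was 0.35 (limma adjusted p = 0.173), and its part in the Wdr77 values was not tested. Gm42890, on the same strand, shares 1389 exon bases with Wdr77, which bears on the Wdr77 level. It was listed at 0, 0 and 0 normalized counts in KI, 0, 0 and 10.9 in KO and 2.88, 0 and 0 in WT.

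Prmt5 (chr14:54507187-54517525, minus strand), the main writer of symmetric dimethylarginine, had 762, 782 and 601 normalized counts in KI, 655, 632 and 537 in KO, and 646, 640 and 498 in WT. The groups overlapped, with KI_3 below the highest KO and WT libraries. Fitted differences on the log2 scale were 0.27 for KI minus WT (interval -0.09 to 0.62), 0.04 for KO minus WT (-0.32 to 0.39) and 0.23 for KI minus KO (-0.13 to 0.58), with limma adjusted p values of 0.564, 0.914 and 0.411.

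Clns1a (chr7:97696634-97720796, plus strand), the Sm protein chaperone of the PRMT5 complex, had 1139, 1356 and 1298 normalized counts in KI, 1103, 1322 and 1092 in KO, and 1089, 1097 and 1096 in WT. Every KI library was above every WT library, and KO overlapped with both. KI minus WT gave a log2 fold change of 0.20 (interval -0.05 to 0.46, limma adjusted p = 0.545), and the change was 0.09 for KO minus WT and 0.11 for KI minus KO.

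Taking the PRMT5 partners as a sum per kb, Wdr77 and Clns1a held 490 ± 30.2 normalized counts per kb in KI, 417 ± 25.5 in KO and 408 ± 2.28 in WT (SD, n = 3 each). Each KI library (463 to 523) was above each KO (394 to 444) and each WT library (406 to 410) with the deposited scaling. The sums were not tested. Of these partners, Wdr77 was called between KI and KO and Clns1a was not. With scaling by total reads, the log2 fold change for KI minus KO was 0.42 in Wdr77 and 0.0059 in Clns1a. The ratio of Wdr77 to Prmt5 per kb was 0.90 ± 0.06 in KI, 0.74 ± 0.09 in KO and 0.84 ± 0.14 in WT, and the ratio in WT_3 was the highest of all, so that KI and WT overlapped.

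Prmt9 (chr8:77549397-77581338, plus strand), the other writer of symmetric dimethylarginine, known for methylating the splicing factor SF3B2, was the gene with WT above both other groups. It had 566, 668 and 643 normalized counts in KI, 610, 582 and 647 in KO, and 846, 696 and 816 in WT. All 3 WT libraries were above all KI and KO libraries, which overlapped each other. KI minus WT gave a log2 fold change of -0.33 ± 0.13 (interval -0.61 to -0.05) and KO minus WT one of -0.35 ± 0.13 (interval -0.64 to -0.07), both SE, and neither was called (limma adjusted p = 0.359 and 0.114). These 2 comparisons share the WT libraries. Between KI and KO the log2 fold change was 0.03, with an interval of -0.25 to 0.31. Prmt5 and Prmt9 together held 291 ± 25.0 normalized counts per kb in KI, 262 ± 11.6 in KO and 289 ± 21.7 in WT.

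Prmt7 (chr8:106210936-106252794, plus strand), the monomethylarginine enzyme, had 747, 843 and 714 normalized counts in KI, 686, 479 and 619 in KO, and 789, 712 and 735 in WT. All KO libraries were below all KI and WT libraries, and KI and WT overlapped. KO minus WT gave a log2 fold change of -0.34 ± 0.15 (interval -0.67 to -0.01, limma adjusted p = 0.188) and KI minus KO one of 0.38 ± 0.15 (interval 0.05 to 0.71, adjusted p = 0.146), neither of them called. For KI minus WT it was 0.04 (interval -0.29 to 0.37). Prmt7 shares 247 exon bases with Smpd3, the neutral sphingomyelinase gene on the opposite strand, which was called higher in KO than in WT (log2 fold change 2.28, limma adjusted p = 0.0156). The part of those shared bases in the Prmt7 values was not tested.

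Among the enzymes of asymmetric dimethylation, Prmt3 (chr7:49778346-49858265, plus strand) came nearest to a call. It had 471, 486 and 486 normalized counts in KI, 327, 377 and 348 in KO, and 387, 354 and 407 in WT. The KI libraries lay close together and were above all others, while KO and WT overlapped. KI minus KO gave a log2 fold change of 0.46 ± 0.13 (SE, interval 0.17 to 0.74, limma adjusted p = 0.056), which DESeq2 called at an adjusted p of 0.00985. It was 0.33 ± 0.13 for KI minus WT (interval 0.05 to 0.62, limma adjusted p = 0.358) and -0.12 for KO minus WT (interval -0.41 to 0.16).

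Prmt1 (chr7:44975989-44986568, minus strand) had 691, 750 and 858 normalized counts in KI, 701, 654 and 659 in KO, and 777, 669 and 760 in WT. All 3 groups overlapped, and KI_3 was the highest library. On the log2 scale the fold change was 0.06 for KI minus WT (interval -0.22 to 0.33), -0.13 for KO minus WT (-0.40 to 0.15) and 0.19 for KI minus KO (-0.09 to 0.46), with limma adjusted p values of 0.901, 0.573 and 0.39.

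Carm1 (chr9:21546894-21592623, plus strand), which methylates histone H3 and steroid receptor coactivators, had 1232, 1368 and 1173 normalized counts in KI, 1340, 1115 and 904 in KO, and 1153, 1146 and 1271 in WT. The KO libraries spread most, from below to above every WT library. On the log2 scale the fold change was 0.08 for KI minus WT (interval -0.25 to 0.40), -0.10 for KO minus WT (-0.43 to 0.22) and 0.18 for KI minus KO (-0.14 to 0.51), with limma adjusted p values of 0.88, 0.714 and 0.479. Carm1 shares 1025 exon bases with Yipf2 on the opposite strand.

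Prmt6 (chr3:110246109-110250998, minus strand), the nuclear enzyme that methylates histone H3, had 346, 200 and 220 normalized counts in KI, 258, 222 and 242 in KO, and 246, 182 and 221 in WT. KI_1 stood above all other libraries and the groups overlapped. Fitted differences on the log2 scale were 0.20 for KI minus WT (interval -0.30 to 0.71), 0.16 for KO minus WT (-0.34 to 0.66) and 0.05 for KI minus KO (-0.46 to 0.55), with limma adjusted p values of 0.775, 0.722 and 0.922. Without KI_1, the first and the last of these turned to -0.04 and -0.19. Prmt6 shares 984 exon bases with the antisense gene C130013H08Rik.

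Prmt2 (chr10:76207222-76237865, minus strand), a weakly active enzyme with an SH3 domain, was the least expressed and the most variable. It had 32.2, 19.2 and 83.0 normalized counts in KI, 17.2, 24.3 and 73.3 in KO, and 42.2, 23.1 and 20.0 in WT, from 17 to 81 recovered reads per library. KI_3 and KO_3 were high, no WT library was, and the groups overlapped. The within-group SD was 0.92 on the log2 scale for Prmt2 and 0.08 for Prmt3, with a median of 0.15 over the 10 genes and of 0.26 over all genes tested. Fitted differences on the log2 scale were 0.45 for KI minus WT (interval of the fold 0.50 to 3.74), 0.22 for KO minus WT (interval -1.23 to 1.66) and 0.24 for KI minus KO (-1.21 to 1.69), with limma adjusted p values of 0.835, 0.878 and 0.858. Changes of more than 2-fold in either direction lie within the last 2 intervals. Without KI_3 the first was -0.11 and the last -0.33, and without KO_3 the second was -0.38.

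The enzymes of asymmetric dimethylation summed to 637 ± 12.0 normalized counts per kb in KI, 554 ± 43.7 in KO and 584 ± 37.6 in WT (SD, n = 3 each). The KI libraries (626 to 650) were above all KO and WT libraries (516 to 610) with the deposited scaling, and the sums were not tested. With scaling by total reads, KI minus WT turned to -0.0402 in Prmt1 and -0.019 in Carm1. It stayed above 0 in Prmt2, Prmt3 and Prmt6. The ratio of the symmetric to the asymmetric enzymes per kb was 0.457 ± 0.045 in KI, 0.473 ± 0.017 in KO and 0.496 ± 0.047 in WT, with overlapping groups.

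**Figure D3:**
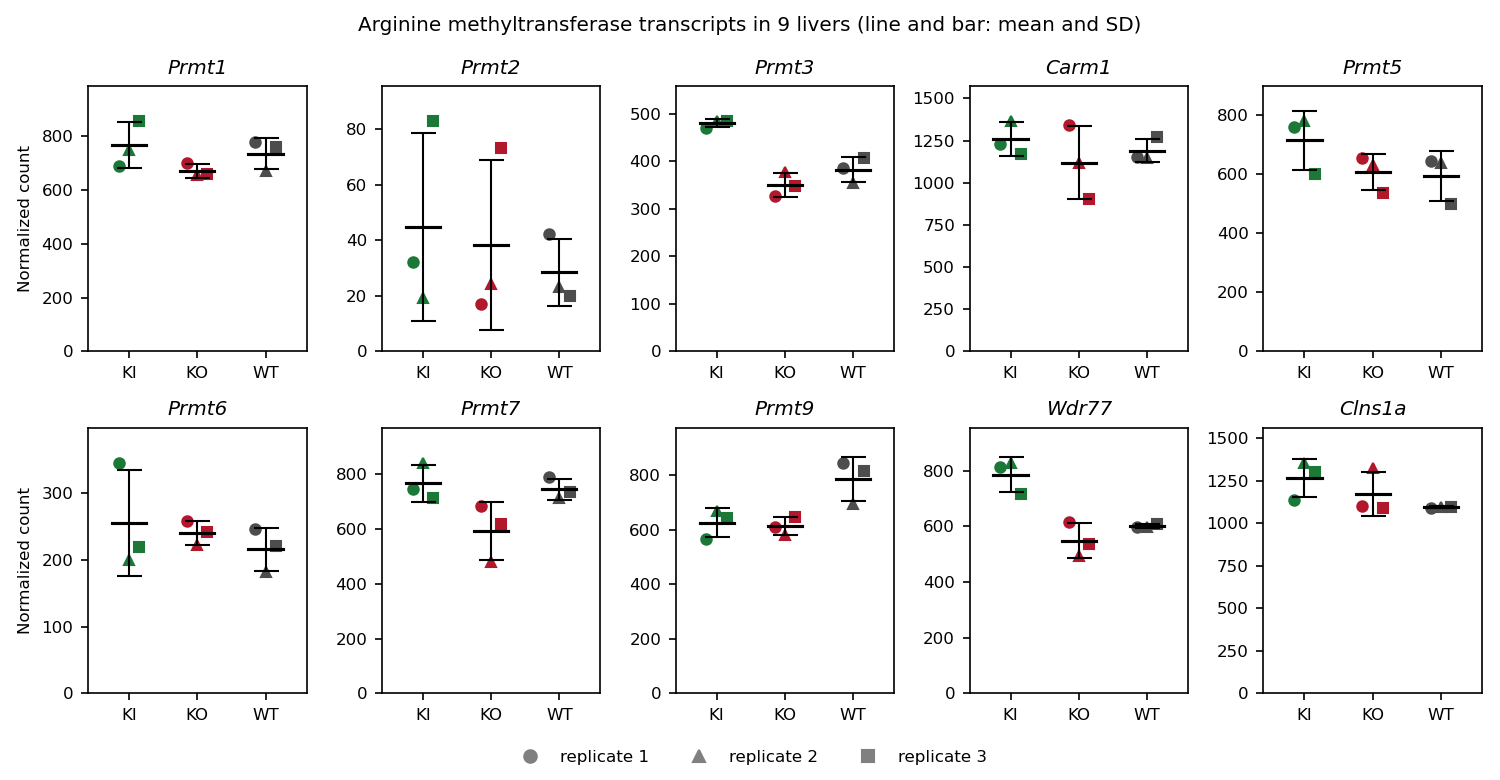
Normalized count of each of the 10 genes in every library (points, shaped by replicate number), with the mean and SD of each group (line and bar) and each vertical axis starting at 0. The KI points of Wdr77 and Prmt3 lie above all others, the WT points of Prmt9 lie above all others, the KO points of Prmt7 lie below all others, and Prmt2 has a single high library in KI and in KO.

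The genes whose profiles over the 9 libraries were most like those of Prmt1 and Prmt5 were found by the root mean square difference of log2 values, each centred on its own mean. For Prmt1 these were Emc4 (0.060), Chchd2l (0.064) and Ankrd13a (0.064), where the median over the 11445 candidate genes was 0.287. For Prmt5 they were Ecd (0.079), Cdc5l (0.082) and Abcf2 (0.083), against a median of 0.313. The profiles themselves had SDs of 0.13 for Prmt1 and 0.21 for Prmt5 on the log2 scale, so these neighbours are in part other genes that varied little.

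Of the genes around arginine methylation, 44 in 5 lists were tested, and calls were made for 0 of the 44 between KI and WT, 5 between KO and WT and 7 between KI and KO, Snd1 included. With limma, the shares over all genes tested were 0.0263%, 8.83% and 8.45% in these comparisons, and nothing particular to the lists is read from the counts. Between KO and WT edgeR called 2 of the 44 (1210 of all 15238 genes) and DESeq2 9 (2294). Between KI and KO they called 6 (1200 of all genes) and 10 (2287). Between KI and WT 8 passed an unadjusted p under 0.05 in limma (11.6% of all genes). There edgeR called 0 (1 of all genes) and DESeq2 4 (385 of all genes). These 4 were Ahcyl2, Mat2b, Srm and Tdrkh, named here after their values were seen. In the list of Tudor domain readers, 7 genes were tested, and Snd1 itself was the one called, lower in KO than in WT and higher in KI than in KO. The other 6 readers gave no call in any comparison with limma or edgeR, and Tdrkh, one of the 4 genes that DESeq2 called between KI and WT, is among them.

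In the list for SAM supply and by-product removal, with 12 genes tested, 2 were lower in KO than in WT. Ahcy, the enzyme that clears S-adenosylhomocysteine, the by-product that inhibits methyltransferases, had 67476, 75439 and 66358 normalized counts in KI, 52737, 40807 and 28093 in KO and 83908, 95313 and 69185 in WT. Gnmt, the liver's main consumer of surplus SAM, had 52109, 60778 and 45835 in KI, 49361, 22273 and 14399 in KO and 65985, 73858 and 56472 in WT. For both genes every KO library was below every WT library, with KO_1 the nearest to WT. KO minus WT gave a log2 fold change of -1.06 for Ahcy (limma adjusted p = 0.0239) and -1.37 for Gnmt (adjusted p = 0.045). The call of Ahcy was lost without KO_2, KO_3, WT_1 or WT_2 (adjusted p of 0.0553 to 0.0909), and that of Gnmt without any 1 library other than KO_1 (0.0583 to 0.152) and in edgeR (0.0882).

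In the same list, Srm and Amd1 were higher in KI than in KO. Srm makes spermidine, and Amd1 decarboxylates SAM for that step. Srm had 1985, 2471 and 2489 normalized counts in KI, 1137, 1457 and 1111 in KO and 1597, 1497 and 1737 in WT (log2 fold change for KI minus KO 0.91, limma adjusted p = 0.00499). Amd1 had 5260, 4296 and 4171 in KI, 2942, 2022 and 1913 in KO and 2425, 3360 and 3142 in WT (1.02, adjusted p = 0.0106). For both genes the KI libraries were the 3 highest of the 9. The Srm call held without each library in turn, and the Amd1 call was lost without KO_2 or KI_1 (adjusted p = 0.0545 and 0.0509).

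In the list of other arginine methyltransferases and PRMT regulators, 5 genes were tested, and Btg1 was lower in KI than in KO. Prmt8, also on that list, had no row in the deposited values. Btg1, whose product binds PRMT1, had 862, 1308 and 1108 normalized counts in KI, 1885, 2514 and 2662 in KO and 1752, 1489 and 1648 in WT. The groups did not overlap, with KI lowest and KO highest. Its log2 fold change for KI minus KO was -1.11 (limma adjusted p = 0.00556), and the call held without each library in turn. Between KO and WT this list had no call in limma, with 2 of 5 at an unadjusted p under 0.05 (25.0% of all genes tested). There edgeR called 0 of the 5 (1210 of all 15238 genes) and DESeq2 2 (2294).

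In the list for removal of methylarginine, 5 genes were tested, and Jmjd6, a hydroxylase once described as an arginine demethylase, was higher in KI than in KO. It had 732, 618 and 715 normalized counts in KI, 486, 337 and 448 in KO and 659, 586 and 553 in WT, so every KO library was below all others. The log2 fold change for KI minus KO was 0.71 (limma adjusted p = 0.0254), and the call was lost without KO_2, KI_1 or KI_3 (adjusted p of 0.0891 to 0.0913). Between KO and WT the list had no call in limma, with 1 of 5 at an unadjusted p under 0.05 (25.0% of all genes tested). There edgeR called 0 of the 5 (1210 of all 15238 genes) and DESeq2 1 (2294).

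Of 15 genes for substrates of arginine methylation, 2 were lower in KO than in WT, and the same 2 were higher in KI than in KO. E2f1, the cell cycle factor whose methylated form SND1 is known to bind, had 200, 147 and 119 normalized counts in KI, 83.2, 53.7 and 83.2 in KO and 132, 149 and 174 in WT. Ncl, which encodes nucleolin, had 9167, 10090 and 9402 in KI, 7174, 7744 and 6851 in KO and 9321, 9285 and 9700 in WT. Every KO library was below every KI and WT library for both genes. The log2 fold changes for E2f1 were -1.06 for KO minus WT (limma adjusted p = 0.0391) and 1.07 for KI minus KO (0.0396), and for Ncl -0.38 (0.0418) and 0.40 (0.0375). The 2 comparisons share the KO libraries. The E2f1 call for KO minus WT was lost without KO_2, KO_3, KI_2, WT_1, WT_2 or WT_3 (0.0541 to 0.141), and the other 3 of these calls were lost without any 1 library other than KO_1 (0.0523 to 0.145).

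Without the 3 libraries with pancreatic transcripts, none of the calls in these lists held other than that of Snd1 between KO and WT, in a fit with 1 KI, 3 KO and 2 WT libraries. The adjusted p values there were 0.182 to 0.239 for Ahcy, Gnmt, E2f1 and Ncl between KO and WT and 0.26 to 0.498 for Srm, Amd1, Btg1, Jmjd6, E2f1 and Ncl between KI and KO, with the log2 fold changes in the same directions. With the level of those markers as a covariate, Snd1 and Ahcy (adjusted p = 0.0421) stayed called, Gnmt, E2f1 and Ncl between KO and WT had 0.0773 to 0.0957, and the 6 genes between KI and KO had 0.0747 to 0.268.

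**Figure D4:**
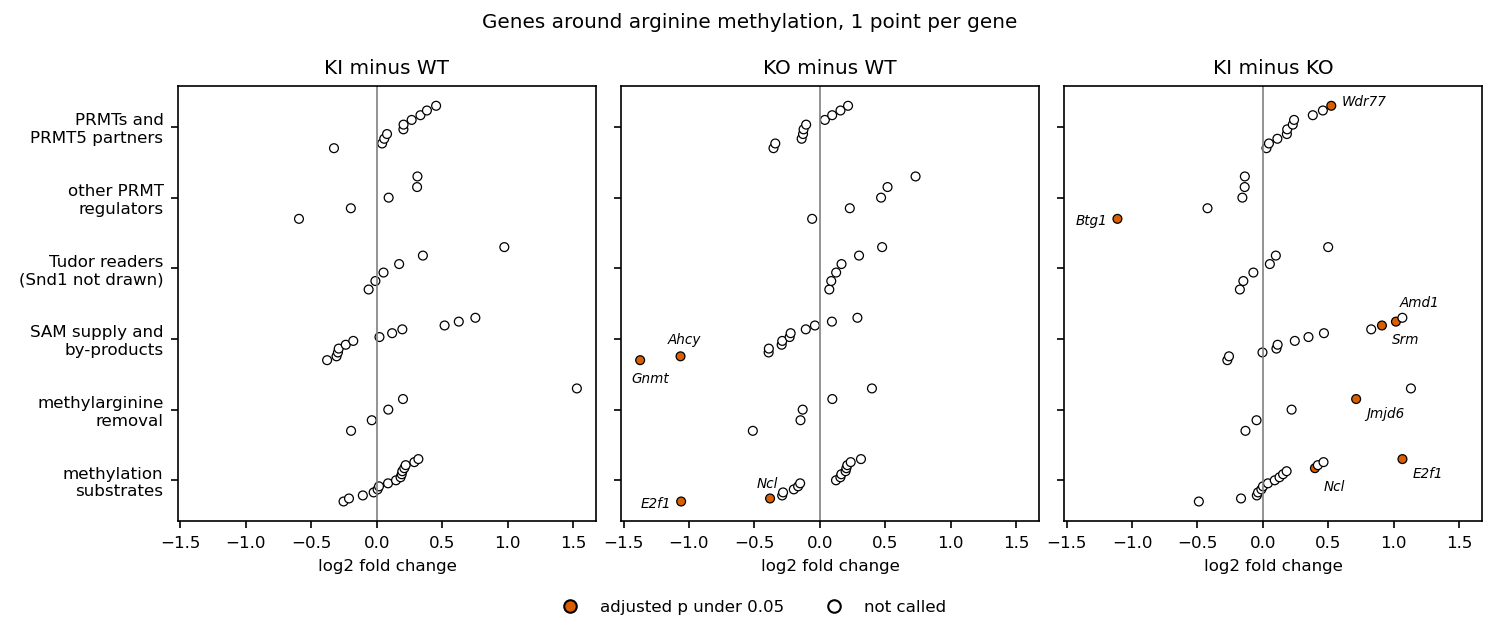
Fitted log2 fold change of each tested gene in the list of the 10 genes and in the 5 lists around it, 1 panel per comparison, with called genes filled and named; Snd1 is not drawn. KI minus WT has no filled point, and Wdr77 is the filled point among the PRMTs and their partners in KI minus KO.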

How the data were processed

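The 10 genes, the gene lists and the tests were chosen with earlier results of these data known. Per the labels' protocols, stranded mRNA libraries were made from total liver RNA. Per the submitters' processing notes, reads were handled with TopHat2, Bowtie2 and featureCounts on GRCm38. Versions, annotation, strand setting and scaling tool are not given in the sources used here, so reads in exons shared by overlapping genes are of uncertain origin.

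The deposited values are a signal that the authors called normalized counts, 1 column per library. They are whole read counts divided by 1 size factor per library (0.8921 to 1.1051). Undoing this gave whole reads for at least 99.975% of the values of each library within 0.0051 units, and 12 values in all did not come out whole. The totals were 59678412 to 66384374 reads. Counting error, taken as Poisson from the mean reads of each of the 10 genes, was 0.04 to 0.24 on the log2 scale. It was below the within-group SD of each, and close to it for Prmt3 (0.07 against an SD of 0.08).

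Genes with a mean of at least 10 over the 9 libraries were tested as log2(value + 1) in limma 3.58.1 (R 4.3.3), with a trend of variance with abundance, 1 mean per group and 6 residual degrees of freedom. Fold changes on this scale understate the change of low genes. Tests were two-sided, with Benjamini-Hochberg adjustment over 15238 genes, and a gene was called at an adjusted p under 0.05. The fit was tested on simulated data. Alternatives were other scalings, pseudocounts of 0.5 and 5, no filter, a replicate block, single libraries left out, the pancreatic libraries left out or adjusted for, and fits of only the 2 groups compared. On the recovered reads, edgeR 4.0.16 called 1 gene between KI and WT, 1210 between KO and WT and 1200 between KI and KO, and DESeq2 1.42.0 called 385, 2294 and 2287.

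A gene of the substrate list is not reported here. Named genes are the 10, Snd1, up to 4 called genes of each list in order of adjusted p, and the 3 nearest profiles of Prmt1 and Prmt5 where the mean was 50 or more. Overlaps and exon lengths are from GENCODE M21, and promoter windows from RefSeq (GRCm38.p6). Tables and plots used Python 3.11, numpy 2.4.6, pandas 2.3.3 and matplotlib 3.10.9.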

Additional observations from a re-analysis of the deposited data

How the results depend on the processing

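Of 600 refitted values of the 10 genes, 559 kept direction and side of the threshold, 12 lost the call (all Wdr77 between KI and KO, with log2 fold changes of 0.42 to 0.60 and adjusted p of 0.0515 to 0.399), 1 gained it (Prmt3 between KI and KO, DESeq2) and 28 changed sign, none of them called. The number of the 10 called between KI and KO was 0 with total read scaling, without the 3 libraries with pancreatic transcripts, with the pancreas covariate and with only the 2 groups fitted, 2 with DESeq2, and 0 to 1 with single libraries left out. Between KI and WT, and between KO and WT, it was 0 throughout. Not every setting could change a direction. A library left out of the group not compared, the replicate block or a fit of only the 2 groups leaves the log2 fold change as in the main fit. Those refits can move the p-value alone, so the 559 are not all checks of direction.

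Genes called between KI and WT (4) numbered 7 with total read scaling, 8 with no filter, 1 with edgeR, 385 with DESeq2, 28 with only the 2 groups fitted, and 0 without the pancreatic libraries or with the covariate. Between KO and WT (1346) they numbered 2294 with DESeq2, 30 without the pancreatic libraries, 750 with the covariate and 871 with only the 2 groups. Between KI and KO (1287) they numbered 2287, 4, 137 and 608 under these 4 settings. With single libraries left out they ranged from 0 to 35, 501 to 2516 and 400 to 2301 in these comparisons. Fewer libraries and residual degrees of freedom remain in such fits, and a lone KI library is assumed to vary like the other groups. Without KO_1 the count rose to 35, 2516 and 2301. The cause was not tested.

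The replicate numbers of the titles are shared by the groups. Between KI and WT, deviations of same-numbered libraries correlated at -0.278, 0.741 and 0.786 for replicates 1, 2 and 3. Between KO and either other group they correlated at -0.101 to 0.228. With 3 libraries a group, and pancreatic transcripts in both KI_3 and WT_3, these values cannot decide whether the numbers pair the libraries. A replicate block gave 3, 1551 and 1500 calls and left 0, 0 and 1 of the 10 genes called.

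Signs turned with total read scaling for KI minus WT in Prmt1 (-0.0402), Carm1 (-0.019) and Prmt7 (-0.056) and for KI minus KO in Prmt6 (-0.058) and Prmt9 (-0.078). Without the pancreatic libraries they turned for KI minus WT in Prmt2 (-0.68), Prmt6 (-0.083) and Snd1 (0.052), for KO minus WT in Prmt5 (-0.084) and for KI minus KO in Prmt2 (-0.69) and Prmt6 (-0.26). With the covariate they turned for Prmt5, KO minus WT (-0.094), and for Prmt2 (-0.17) and Prmt6 (-0.085), KI minus KO. With single libraries left out, KI minus WT ranged from -0.027 to 0.13 in Prmt1, -0.11 to 0.92 in Prmt2, -0.036 to 0.36 in Prmt6 and -0.028 to 0.092 in Prmt7. KO minus WT ranged from -0.38 to 0.63 in Prmt2, -0.24 to 0.0402 in Carm1 and -0.084 to 0.12 in Prmt5. KI minus KO ranged from -0.33 to 0.83 in Prmt2, -0.19 to 0.20 in Prmt6 and -0.022 to 0.10 in Prmt9. Of the other named calls, E2f1, Gnmt and Ncl between KO and WT and Ncl between KI and KO were lost in edgeR (0.0526 to 0.0882), and E2f1 and Ncl in both comparisons and Jmjd6 and Kmt5a between KI and KO with total read scaling (0.0556 to 0.196). Among the 10 genes, the spread was closest to the counting error in Prmt3 (0.08 against 0.07). Prmt2, the gene with the fewest reads, had the largest counting error (0.24), and its spread (0.92) was well above that.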

Other observations

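Lysine methyltransferases, which also draw on SAM, were called about as often as genes in general. Of 23 tested, limma called 0 between KI and WT, where 0.0263% of all genes tested were called. In that comparison 2 passed an unadjusted p under 0.05 (11.6% of all genes). There edgeR called 0 (1 of all genes) and DESeq2 0 (385 of all genes). In limma 2 were lower in KO than in WT (8.83% of all genes tested were called in that comparison), and 2 were higher in KI than in KO (8.45%). Suv39h1, which trimethylates histone H3 in constitutive heterochromatin, had 406, 368 and 407 normalized counts in KI, 267, 215 and 197 in KO and 376, 429 and 349 in WT. Every KO library was below every KI and WT library. Its log2 fold change was -0.77 for KO minus WT (limma adjusted p = 0.0178) and 0.81 for KI minus KO (adjusted p = 0.0156). The first call was lost without KO_2, KO_3, WT_1 or WT_2 (0.0587 to 0.0756), and the second without KO_2, KI_1 or KI_3 (0.0598 to 0.0668).

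Smyd2, a methyltransferase of p53 and histones, had 1132, 1253 and 1198 normalized counts in KI, 1032, 852 and 823 in KO and 1231, 1430 and 1260 in WT, with every KO library below the rest (KO minus WT -0.54, limma adjusted p = 0.0246). The call was lost without KO_2, KO_3, WT_1, WT_2 or WT_3 (0.0644 to 0.0956). Kmt5a, the histone H4 monomethyltransferase, had 1869, 1888 and 2126 in KI, 1657, 1132 and 1129 in KO and 1718, 1747 and 1601 in WT, with every KI library above the rest (KI minus KO 0.61, limma adjusted p = 0.0366). That call was lost without any 1 library other than KO_1 (0.0535 to 0.143). Without the 3 libraries with pancreatic transcripts the adjusted p values were 0.155 to 0.173 for the calls between KO and WT and 0.431 to 0.494 for those between KI and KO.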
